A study of Mus musculus with 22 samples.

Results

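The 38 Hox genes described here belong to the HOX-A, HOX-B, HOX-C and HOX-D clusters, and were chosen by gene symbol out of 41388 genes counted in each library. The rule for the choice used no measured value, but earlier results of these data were known when it was made. HOX-A and HOX-B hold 10 of them each, HOX-C and HOX-D 9 each. The counts come from stromal cells that were dissociated from tumors of C57BL/6 mice at postnatal day 56, freed of GFP-labelled tumor cells and sorted by the TdTomato reporter (TdT) and by CD45, a surface protein of leukocytes. The sort gave TdT single positive (Osx+ CD45-), double negative (Osx- CD45-), double positive (Osx+ CD45+) and CD45 single positive (Osx- CD45+) cells. All mice carried Osx-cre, a doxycycline-repressible Cre under the promoter of the osteoblast factor Osterix, with the Ai9 TdTomato allele. Mice called wild type carried only these (Osx-cre;Ai9), and Cdh2-cKO;Ai9 mice carried in addition a conditional knockout of *Cdh2*, the gene of N-cadherin. Per genotype there were 2 TdT single positive libraries and 3 from every other population, so that 10 CD45- and 12 CD45+ libraries make 22 in all. The labels call the tumors orthotopic MMTV-BO1, whereas the design text gives subcutaneous tumors. Mice were inoculated in both genotypes, and only preparations that passed an RNA integrity test were sequenced, so a mouse does not have to be present in every population. TdT marks any cell that once expressed Osx-cre or descends from one, not cells that express Osterix at the time of the sort.

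Hox genes encode homeodomain transcription factors that give cells their place along the body axis during development. In each cluster the genes lie in the order in which they are used, from paralog group 1, active toward the head, to group 13, active toward the tail and the tips of the limbs. Fibroblasts and other mesenchymal cells of the adult keep a Hox pattern typical of where they formed, and leukocyte precursors use some Hox genes, chiefly of HOX-A and HOX-B, which fall as the cells mature. Pbx, Meis and Pknox proteins bind DNA together with Hox proteins, and Trithorax and Polycomb complexes keep the clusters active or silent.

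Since members of a paralog group resemble each other most in the homeobox, its DNA shows how far 50-base reads can tell them apart. On GRCm38 (positions from GENCODE M21), the group 10 genes *Hoxa10* and *Hoxc10* lie on chromosome 6 at chr6:52231197-52240854 on the minus strand and on chromosome 15 at chr15:102966796-102971893 on the plus strand. The coding DNA of their homeoboxes, each within 1 exon (chr6:52232554-52232733 and chr15:102970848-102971027), is given 5′ to 3′ with the bases that differ in capitals, since *Hoxc10* leads the CD45- pattern and *Hoxa10* marks its edge in HOX-A.
Hoxa10: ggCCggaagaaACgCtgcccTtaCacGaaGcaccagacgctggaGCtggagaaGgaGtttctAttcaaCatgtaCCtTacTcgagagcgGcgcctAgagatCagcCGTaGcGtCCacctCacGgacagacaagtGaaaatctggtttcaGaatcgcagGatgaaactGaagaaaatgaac
Hoxc10: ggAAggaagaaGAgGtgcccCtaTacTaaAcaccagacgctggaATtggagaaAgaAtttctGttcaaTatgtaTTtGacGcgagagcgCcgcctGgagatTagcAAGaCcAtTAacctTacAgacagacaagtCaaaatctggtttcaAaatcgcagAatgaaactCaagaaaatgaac
These 180 bases were 80.6% identical, with no identical stretch over 14 bases. Among all 703 pairs of members the longest identical stretch of homeobox was 52 bases, in *Hoxa6* and *Hoxb4*, the 1 pair that reached the length of a read. Overlap with neighbouring genes was more common. Of the members, 15 share exon bases with another annotated gene, 6 of them over more than 20% of their exons, and reads there count for neither gene. *Hoxb3* shares 52.9% with an antisense RNA, *Hoxd3* 62.8% and *Hoxd4* 52.3% with neighbours, so low counts of these genes are uncertain. The library kit does not mark strand, so reads where *Hoxa7* and its antisense RNA *Hoxaas3* overlap, over 15.6% of the *Hoxa7* exons, cannot be told apart.

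Library depth, as reads assigned to genes, ran from 16594228 to 26784003 (median 18977040), and 3 counts were taken as the smallest signal, for counting error only. The variance between replicates was 49.7 to 408.9 times that of counting alone. The sort was visible in the markers. The summed level of 7 leukocyte genes was between 12210 and 15595 CPM on TMM-adjusted library sizes (normalized CPM) in CD45+ libraries, and between 67.8 and 8052 in CD45- libraries. The highest CD45- value was that of wild type double negative replicate 3, followed by 4974 in Cdh2-cKO TdT single positive replicate 1. The sum of 7 fibroblast genes was between 4276 and 59707 normalized CPM in CD45- and between 62.2 and 215.7 in CD45+ libraries. The sum of 6 endothelial genes was 217 in wild type CD45 single positive replicate 2 and at most 37.5 in every other CD45+ library. *Sp7*, the gene of Osterix, had at most 1 count in any library. *Cdh2* was not lower in the libraries labelled Cdh2-cKO. It was at 5.19 and 9.13 normalized CPM in wild type and 13.1 and 17.2 in Cdh2-cKO TdT single positive libraries, and at most 7.47 in wild type and at least 12.5 in Cdh2-cKO double negative libraries. Which exons the deletion removes is not given in the sources used here, so counts of the whole gene need not show it.

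Of the Hox reads, 24162 were in the 10 CD45- libraries and 886 in the 12 CD45+ libraries. Summed over the 38 genes, TdT single positive libraries held 2040, 2387, 3447 and 4437 counts, and double negative libraries between 663 and 3267 with a median of 1981. Double positive libraries held between 49 and 92 and CD45 single positive libraries between 53 and 106. No CD45+ library came near the lowest CD45- library, wild type double negative replicate 3, in which the leukocyte sum was highest. Because these are bulk samples, fewer cells of a type that uses Hox genes and less Hox RNA per cell cannot be told apart.

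**Figure D1:**
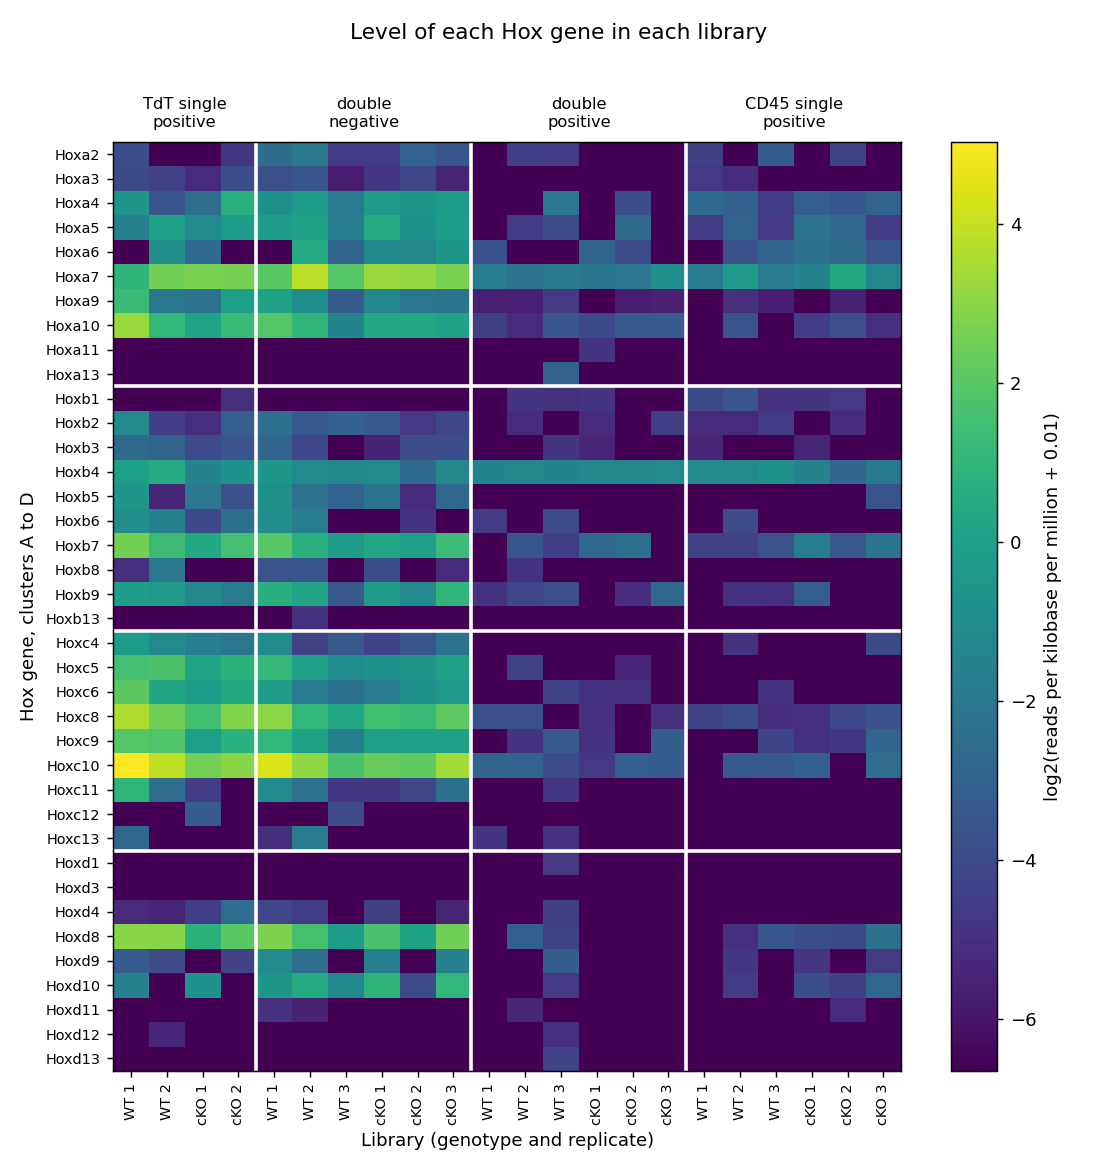
Level of each of the 38 Hox genes (rows, by cluster and paralog group, white lines between clusters) in each of the 22 libraries (columns, by population), as log2 of RPKM plus 0.01. Bright rows fill the CD45- columns on the left, whereas in the CD45+ columns only *Hoxa7* and *Hoxb4* were above 3 counts in all 12 libraries.

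Of the 38 genes, 19 passed the filter of more than 1 CPM in at least 2 libraries and were tested with edgeR among 15018 genes. All 19 had an adjusted p of at most 0.05 for higher levels in CD45- than in CD45+ cells, against 31.1% of the genes tested (63.7% in either direction). This count is no support in itself, since 17 of the 19 passed the filter only through CD45- libraries and so had to differ. *Hoxa7* and *Hoxb4* passed through CD45+ libraries as well. Within wild type libraries 19 were higher (25.7% of all genes tested) and 0 lower (25.3%), with 51.1% of all genes called in either direction. Within libraries labelled Cdh2-cKO 16 were higher (27.1%) and 0 lower (23.6%), with 50.7% in either direction. In 11 of the 19 tested members (57.9%) the lowest CD45- library lay above the highest CD45+ library, against 11% of all genes tested. These 11 were *Hoxa5*, *Hoxa7*, *Hoxa9*, *Hoxa10*, *Hoxb7*, *Hoxc5*, *Hoxc6*, *Hoxc8*, *Hoxc9*, *Hoxc10* and *Hoxd8*. All of them but *Hoxa7* passed the filter only through CD45- libraries, so this count is no support either. Without wild type double negative replicate 3 and CD45 single positive replicate 2, which stood apart from their replicates, 19 members were again higher.

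Levels of different genes are compared as reads per kilobase of exon, scaled to the TMM-adjusted library size (RPKM). *Hoxc10*, a group 10 gene used in the lumbar and hindlimb region of the embryo, was the highest on average in CD45- cells and made up 26.8% of the members' mean summed level there. It was at 6.03, 7.81, 14.8 and 32.6 RPKM in TdT single positive libraries, and between 3.23 and 20.4 with a median of 6.82 in double negative ones. In the 12 CD45+ libraries it was between 0 and 0.168, with at most 5 counts. The ranges of CD45- and CD45+ libraries were far apart, and *Hoxc10* was higher by 6.95 ± 0.43 (log2 fold change ± SE, edgeR adjusted p = 5.46e-10). Of the 8 members highest in CD45- cells, only *Hoxa7* also passed the filter through CD45+ libraries. For the others, *Hoxc10* among them, p-values and ranges without overlap are therefore no support in themselves.

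*Hoxa7*, a trunk gene that blood cell precursors also use, was second with 15.6% of the summed level. It was at 1.90, 5.75, 6.16 and 6.43 in TdT single positive libraries and between 3.78 and 13.9, with a median of 7.59, in double negative ones. Its levels in CD45+ libraries reached from 0.202 to 1.35 with a median of 0.286. The 2 ranges did not overlap but came closer than those of *Hoxc10*, with a log2 fold change of 3.94 ± 0.34 (edgeR adjusted p = 3.41e-08).

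*Hoxc8*, which patterns the thorax, and *Hoxd8*, its HOX-D paralog, followed with 11.4% and 9.87% of the summed level. *Hoxc8* was at 2.81, 5.69, 6.95 and 12 in TdT single positive libraries, between 1.26 and 7.87 (median 2.59) in double negative and at most 0.0679 in CD45+ libraries. *Hoxd8* was at 1.79, 4.12, 7.72 and 7.75, between 0.843 and 6.53 (median 3.13) and at most 0.187 in the same order. Neither gene overlapped between CD45- and CD45+ cells, and the log2 fold changes were 7.15 ± 0.46 and 7.30 ± 0.60 (edgeR adjusted p = 7.47e-10 and 5.43e-08).

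Of the other leading members, *Hoxa10* was at 1.13, 2.10, 2.29 and 9.49 RPKM in TdT single positive and between 0.371 and 3.68 (median 1.31) in double negative libraries. *Hoxb7* was at 1.35, 2.53, 2.86 and 5.82 and between 0.856 and 3.99 (median 1.48), and *Hoxc9* at 0.945, 1.76, 3.52 and 3.80 and between 0.340 and 2.14 (median 1.02). In CD45+ libraries these 3 genes stayed at or below 0.285. Their log2 fold changes were 5.66 ± 0.49, 4.81 ± 0.46 and 5.39 ± 0.53. *Hoxc5* was at 1.12, 1.81, 2.89 and 3.45 and between 0.499 and 2.20 (median 0.835), but had only 3 counts in all 12 CD45+ libraries against 1061 in the 10 CD45- libraries. Scaled by library size, the ratio was 338, with an exact 95% counting interval from 115 to 1640. *Hoxb5*, *Hoxc4* and *Hoxc11* also had 3 or fewer CD45+ counts, so their fitted fold changes depend on the prior count. The other 15 tested members were higher by between 0.59 (*Hoxb4*) and 7.30 (*Hoxd8*) on the log2 scale.

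**Figure D2:**
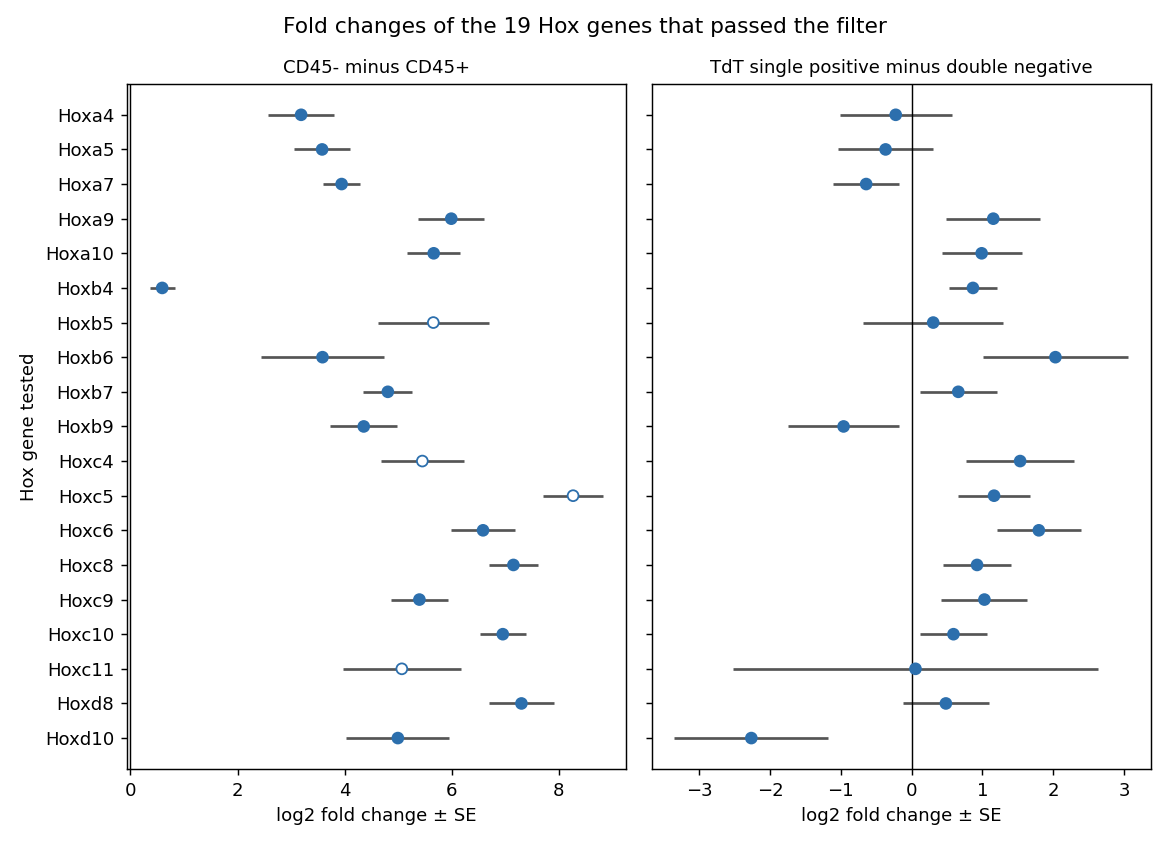
Log2 fold change (points) with SE (bars) of the 19 tested Hox genes between CD45- and CD45+ cells (left) and between TdT single positive and double negative cells (right). Open points mark genes with 3 or fewer counts over all CD45+ libraries. On the left *Hoxb4* sits lowest at 0.59, and on the right no gene passed the adjusted threshold.

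The pattern along the clusters had an anterior and a posterior edge in CD45- cells. Genes of groups 4 to 8 made up 57.6% ± 10.7 (SD, n = 4) of the summed per-length level in TdT single positive and 61.0% ± 6.95 (n = 6) in double negative libraries, and groups 9 and 10 made up 41.0% ± 9.61 and 37.6% ± 6.85. Groups 1 to 3 stayed at or below 1.13% in each CD45- library and groups 11 to 13 at or below 2.32%. Reads on exon bases shared with another gene were not counted, so these shares can be too low. In these groups *Hoxa3*, *Hoxb2*, *Hoxb3*, *Hoxd3* and *Hoxa11* share more than 20% of their exon bases. The posterior edge was steepest in HOX-A. There, *Hoxa10* had between 22 and 608 counts in CD45- libraries, while *Hoxa11*, its neighbour, which patterns the forearm and the uterus, and *Hoxa13* had 0 in all 10. The counts of *Hoxa11* leave out reads on the exon bases it shares with *Hoxa11os*, whereas *Hoxa10* and *Hoxa13* share none. In HOX-C, *Hoxc10* had between 112 and 1220 counts, *Hoxc11* between 0 and 78, *Hoxc12* at most 3 and *Hoxc13* at most 13. The 78 counts of *Hoxc11* were in wild type TdT single positive replicate 1, which also had the highest *Hoxc10*. In HOX-D, *Hoxd8* was high while *Hoxd9* had at most 21, *Hoxd10* at most 92, and *Hoxd11*, *Hoxd12* and *Hoxd13* at most 2 counts in any library.

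**Figure D3:**
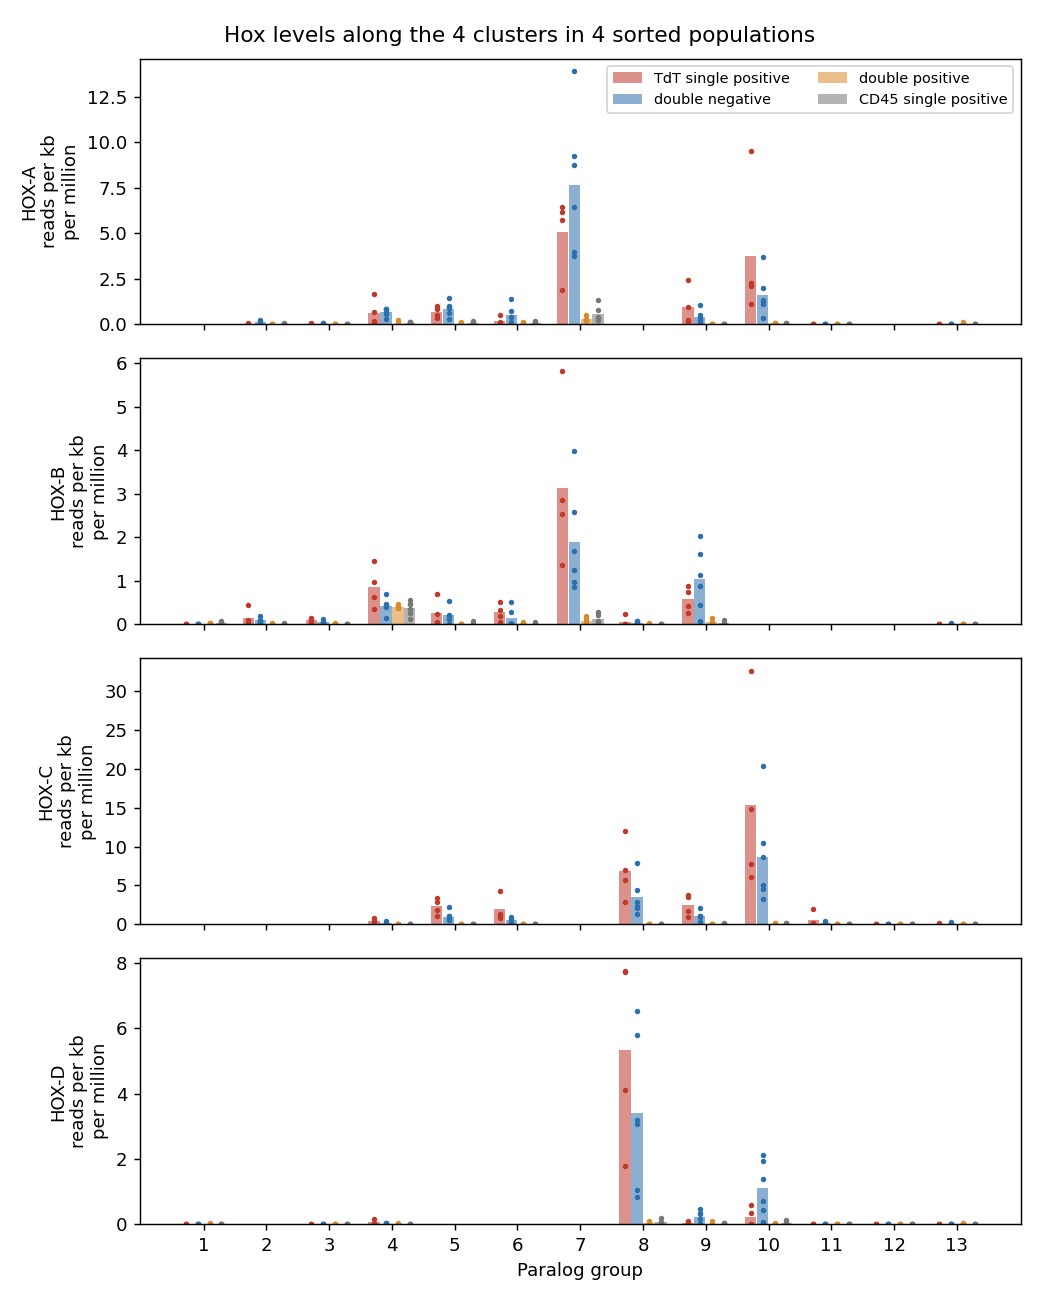
Mean level (bars) and library values (points) in RPKM along each cluster, by paralog group, in the 4 sorted populations (scales differ between panels). Levels were highest at groups 7 to 10, with *Hoxc10* up to 32.6 RPKM, and groups 11 to 13 were close to 0.

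The clusters contributed unequally. HOX-C gave 54.2% ± 7.59 (SD, n = 4) of the summed level in TdT single positive and 40.5% ± 9.61 (n = 6) in double negative libraries, HOX-A 24.5% ± 8.31 and 36.5% ± 13.1, HOX-D 11% ± 2.75 and 12.4% ± 5.46, and HOX-B 10.2% ± 0.379 and 10.5% ± 2.29. For HOX-A and HOX-C the libraries of the 2 populations overlapped. In CD45+ libraries, whose few reads leave these shares imprecise, HOX-A and HOX-B led. HOX-A gave 38.4% ± 7.42 of the level in double positive and 49.4% ± 17.2 in CD45 single positive libraries (n = 6 each), HOX-B 43.2% ± 8.01 and 34.8% ± 14.5, and HOX-C 14.2% ± 4.95 and 9.28% ± 6.62.

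At the other end, 9 of the 38 members had no more than 3 counts in any library. These were *Hoxa11*, *Hoxb1*, *Hoxb13*, *Hoxc12*, *Hoxd1*, *Hoxd3*, *Hoxd11*, *Hoxd12* and *Hoxd13*. *Hoxd3* had no count at all, and over most of its exons reads were shared with neighbours and not counted. The other 10 untested members, *Hoxa2*, *Hoxa3*, *Hoxa6*, *Hoxa13*, *Hoxb2*, *Hoxb3*, *Hoxb8*, *Hoxc13*, *Hoxd4* and *Hoxd9*, had between 6 and 92 counts over the 22 libraries together. *Hoxa13*, a gene of the limb tips and the urogenital tract, had its 6 counts in wild type double positive replicate 3. Altogether 31 members had a higher mean in CD45- and 6 in CD45+ cells. Those 6 were *Hoxa11*, *Hoxa13*, *Hoxb1*, *Hoxd1*, *Hoxd12* and *Hoxd13*, each at 6 counts or fewer in its highest library.

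In CD45+ cells the order of the members differed. *Hoxa7* made up 26.9% and *Hoxb4* 24.4% of the mean summed level, followed by *Hoxb7* with 6.09%. *Hoxb4*, a factor known from blood stem cells, was the leading member whose CD45+ and CD45- levels lay closest. It was between 0.370 and 0.469 RPKM in double positive libraries (median 0.398) and between 0.130 and 0.567 in CD45 single positive ones (median 0.416). In double negative libraries it was between 0.151 and 0.699 (median 0.440) and in TdT single positive ones at 0.361, 0.622, 0.975 and 1.45. CD45+ and double negative libraries overlapped over most of their range, and *Hoxb4* was higher in CD45- cells by 0.59 ± 0.24 on the log2 scale (edgeR adjusted p = 0.0358). That call was lost in 15 of 30 alternatives, among them 11 of the 22 that leave out 1 library, voomWithQualityWeights (0.47 ± 0.24, adjusted p = 0.0839) and the libraries labelled Cdh2-cKO alone (0.30 ± 0.34, adjusted p = 0.474).

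Set against CD45- cells, the mean of *Hoxb4* in CD45+ cells was 64.9%, of *Hoxa7* 6.48%, of *Hoxb7* 4.06%, of *Hoxa10* 1.85%, of *Hoxd8* 1.08%, of *Hoxc8* 0.729% and of *Hoxc10* 0.723%. The fibroblast marker sum in CD45+ cells was 0.524% of that in CD45- cells. The part of fibroblast RNA in the few HOX-C reads of CD45+ libraries was not tested. Between the double positive and CD45 single positive cells, edgeR called 0 of the 19 members (0.00666% of all genes tested) and gave 0 an unadjusted p under 0.05. limma's voomWithQualityWeights and DESeq2 also called 0, with 0 and 2 at an unadjusted p under 0.05. *Hoxa7* differed by -0.95 ± 0.46, *Hoxb4* by 0.18 ± 0.32 and *Hoxb7* by -0.57 ± 0.74 on the log2 scale, double positive minus CD45 single positive. Most other members were at or near 3 counts in both, where a difference was not detectable at this depth.

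**Figure D4:**
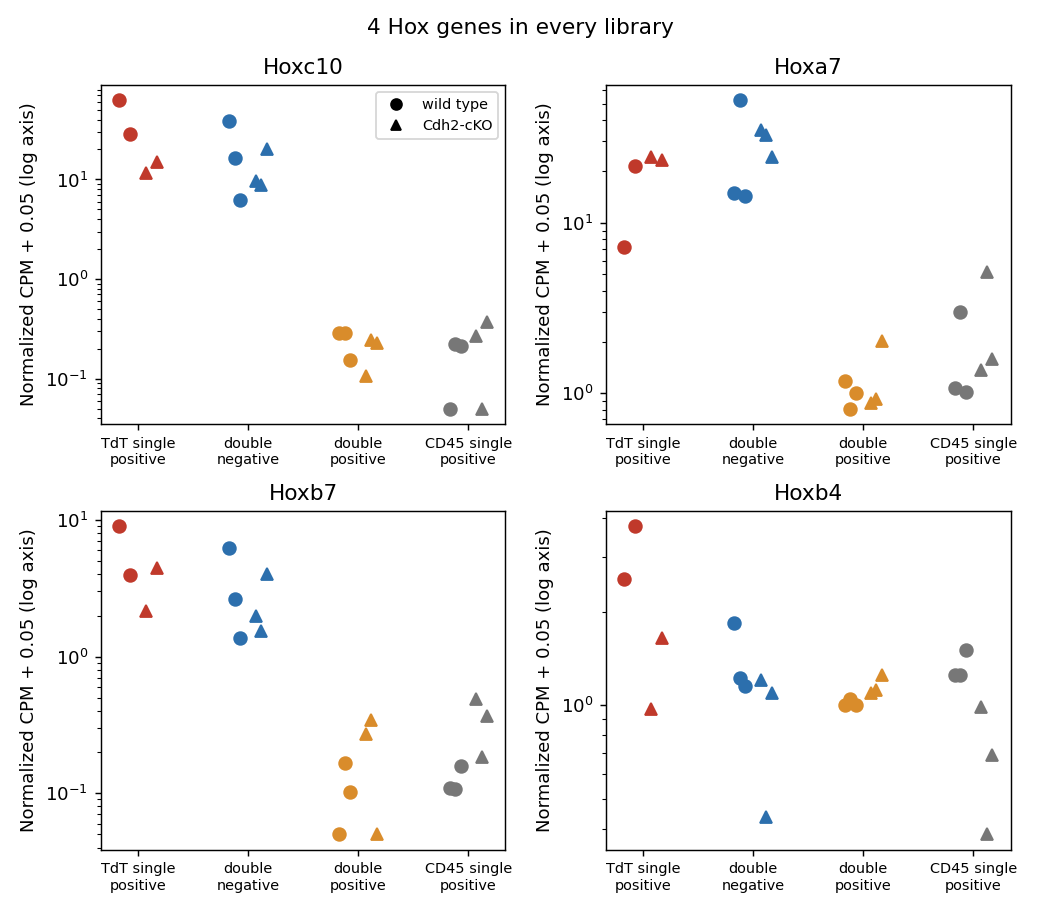
Normalized CPM plus 0.05 (log axis) of *Hoxc10*, *Hoxa7*, *Hoxb7* and *Hoxb4* in each library of the 4 populations, circles for wild type and triangles for Cdh2-cKO. *Hoxc10*, *Hoxa7* and *Hoxb7* did not overlap between CD45- and CD45+ libraries, whereas *Hoxb4* did.

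Within CD45- cells, the question was whether cells with an Osx-cre history carry another Hox pattern than the remaining stroma. Between TdT single positive and double negative cells, edgeR called 0 of the 19 tested members (1.89% of all genes tested, 1.23% higher), and 3 had an unadjusted p under 0.05. limma's voomWithQualityWeights called 3 members higher in TdT single positive cells, *Hoxc4*, *Hoxc5* and *Hoxc6* (4.78% of all genes), and DESeq2 called 0 (6.54%). Of the 19, 14 had a higher fitted mean in TdT single positive cells, with a median log2 fold change of 0.66 against 0.07 for all genes tested. Within wild type libraries 0 members were called (0.16% of all genes, 0.107% higher and 0.0533% lower) and within libraries labelled Cdh2-cKO 0 (0.0333%, each higher), with 2 and 0 at an unadjusted p under 0.05. The 3 with an unadjusted p under 0.05 became 9 with voomWithQualityWeights. Leaving out 1 library gave 9 (of 16 tested, smallest adjusted p 0.0501) without wild type double negative replicate 1, 6 without Cdh2-cKO TdT single positive replicate 1, 5 without wild type TdT single positive replicate 2, and 1 without Cdh2-cKO TdT single positive replicate 2. No member separated the populations fully with TdT single positive above, as 2.72% of all genes tested did.

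The fibroblast marker sum was between 13758 and 59707 normalized CPM (median 30312) in TdT single positive and between 4276 and 32221 (median 9456) in double negative libraries. Its 7 genes had a median log2 difference of 1.16 between these populations and the 6 endothelial genes one of -0.91, with 0 of either called by edgeR. The part of these cells in the Hox values was not tested. Deviations of same-numbered TdT single positive and double negative libraries correlated in each of 4 pairs (r between 0.113 and 0.593). These are not 4 independent results, since the deviations of the 2 TdT single positive libraries of a genotype mirror each other. Wild type TdT single positive replicate 2 went more with double negative replicate 3 (r = 0.428) than with replicate 2 (r = 0.215). With the replicate number as a block edgeR called 0 members (1.23% of all genes), with 5 at an unadjusted p under 0.05 and a smallest adjusted p of 0.141.

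The smallest adjusted p belonged to *Hoxc6*, a thoracic HOX-C gene, which was named after its values were seen. It was at 0.854, 1.18, 1.34 and 4.28 RPKM in TdT single positive and between 0.183 and 0.935 with a median of 0.424 in double negative libraries. Only 1 TdT single positive library lay within the double negative range. The log2 difference was 1.80 ± 0.60 (edgeR adjusted p = 0.119, and 0.0253 by voomWithQualityWeights). The paper lists *Hoxc6* and *Hoxc4* among the genes most raised in TdT single positive over double negative cells. Its methods describe fitting each population against the mean of all the others, which is another comparison than the one made here. The paper describes no Cdh2-cKO mice, whereas the 1.80 given here pools both genotypes. Within wild type libraries *Hoxc6* differed by 2.54 ± 0.85 and *Hoxc4* by 1.695 ± 1.052 (edgeR adjusted p = 0.184 and 0.420). Over both genotypes, *Hoxc5* differed by 1.16 ± 0.50 and *Hoxc10* by 0.59 ± 0.47, and *Hoxa7*, in the other direction, by -0.64 ± 0.47 (edgeR adjusted p = 0.231, 0.508 and 0.472). *Hoxd10*, also named after its values were seen, had 0, 0, 12 and 31 counts in TdT single positive and between 2 and 92 in double negative libraries, a log2 difference of -2.26 ± 1.09 (edgeR adjusted p = 0.273). Leaving out 1 library moved it to between -5.45 and -1.74, by over 1.5 times without Cdh2-cKO or wild type TdT single positive replicate 1, the 2 libraries of that population with counts.

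The spread between CD45- libraries of one population was wide, and levels of the leading members went with marker sums. No relation was computed within the TdT single positive libraries alone. Relations of the 8 leading members with the fibroblast and epithelial marker sums, 16 in all, were computed on log2 values over the 10 CD45- libraries, which can share mice. The permutations did not keep to population or genotype, so the p-values also take in differences between these groups. *Hoxc10* went with the fibroblast sum (Pearson r = 0.906, Spearman rho = 0.939, Benjamini-Hochberg adjusted permutation p = 0.00109 and 0.00108). Within the 6 double negative libraries r was 0.949, and without the 2 libraries farthest from the median it was 0.786. The same held for *Hoxc8*, *Hoxd8*, *Hoxa10*, *Hoxb7*, *Hoxc9* and *Hoxc5*, with Pearson r between 0.846 and 0.977 and an adjusted permutation p of at most 0.00374 for r and 0.0177 for rho. For these genes r within the 6 double negative libraries lay between 0.848 and 0.979.

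*Hoxa7* was the exception among the 8. Its r with the fibroblast sum was -0.529 (rho = -0.503, adjusted permutation p = 0.122 and 0.143) and -0.821 without the 2 farthest libraries, and with the epithelial sum 0.877 (rho = 0.927, adjusted permutation p = 0.00096 and 0.00112). Within the 6 double negative libraries the latter was 0.856, and without the 2 farthest libraries 0.888. The other 7 members had an r between -0.726 and -0.486 with the epithelial sum, with an adjusted permutation p of 0.0177 for *Hoxc10* and *Hoxb7*, 0.0403 for *Hoxc8* and at least 0.0506 for the others, and of at least 0.0637 for rho. Without the 2 farthest libraries these r lay between -0.477 and -0.0722, so most of them rest in part on those libraries. The r of *Hoxc5* moved least, from -0.597 to -0.477. Wild type TdT single positive replicate 1, with the lowest epithelial sum of 33.9 normalized CPM, had *Hoxa7* at 0.0583 of the level of *Hoxc10*. In Cdh2-cKO double negative replicate 2, with the highest sum of 1994, the ratio was 1.91. Most of the epithelial sum in CD45- libraries came from *Krt18* (between 349 and 32379 counts) and *Krt8* (between 170 and 8518). *Epcam* was above 3 counts in 2 and *Cldn7* in 1 of the 10, so the list does not mark one cell type there. *Cdh1* and *Epcam* were lower in CD45- than in CD45+ cells, with log2 differences of -4.075 ± 0.647 and -4.957 ± 0.908. In contrast, *Krt8*, *Krt18* and *Krt19* were higher in CD45- cells. Whether cells with keratin RNA carry the *Hoxa7* reads was not tested, nor was the difference between *Hoxa7* and the other members.

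**Figure D5:**
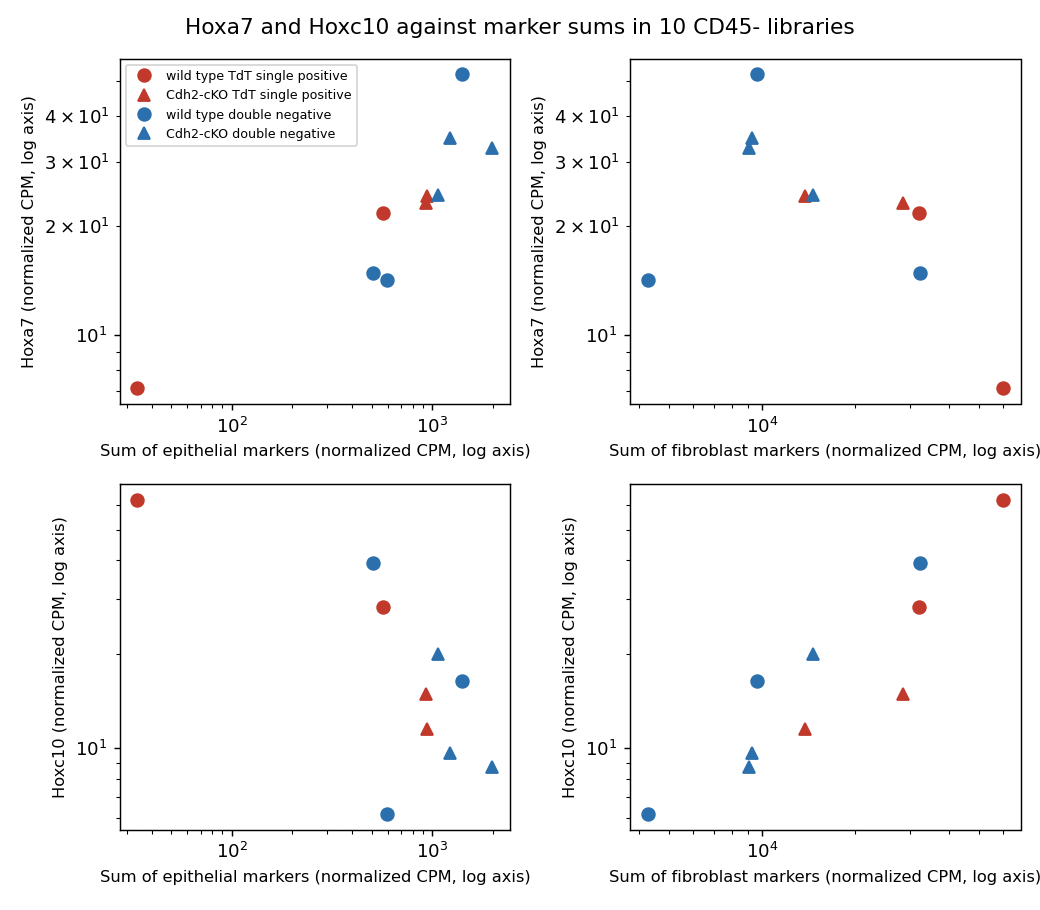
Normalized CPM of *Hoxa7* (top) and *Hoxc10* (bottom) against the sums of 7 epithelial (left) and 7 fibroblast markers (right) in the 10 CD45- libraries, log axes, circles for wild type and triangles for Cdh2-cKO. *Hoxa7* rises with the epithelial sum (r = 0.877), most of which came from *Krt18* and *Krt8*, and *Hoxc10* with the fibroblast sum (r = 0.906).

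Promoters were read from RefSeq on GRCm38.p6 for 22 of the 38 members. Of the 8 leading members, *Hoxa7*, *Hoxa10* and *Hoxd8* had an entry, and those of *Hoxa7* and *Hoxd8*, whose levels ran apart across CD45- libraries, are given as the 250 bases before the start of transcription (chr6:52218574-52218823, minus strand, and chr2:74704365-74704614, plus strand).
Hoxa7: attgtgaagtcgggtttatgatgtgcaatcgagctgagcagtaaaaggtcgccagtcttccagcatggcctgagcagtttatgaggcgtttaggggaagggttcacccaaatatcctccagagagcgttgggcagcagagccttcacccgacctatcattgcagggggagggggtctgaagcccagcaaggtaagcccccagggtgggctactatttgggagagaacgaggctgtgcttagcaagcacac
Hoxd8: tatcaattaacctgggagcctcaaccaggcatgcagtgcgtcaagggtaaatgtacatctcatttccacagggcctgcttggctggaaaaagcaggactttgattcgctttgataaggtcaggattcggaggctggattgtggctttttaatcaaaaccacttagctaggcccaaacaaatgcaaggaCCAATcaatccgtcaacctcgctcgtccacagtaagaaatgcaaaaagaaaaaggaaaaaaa
Both strands were searched for TATAAA, found in 12.3% of 32536 mouse promoters of this length, for CCAAT, found in 33.8%, for CACGTG, found in 6.04%, and for TGATTNAT, found in 2.83%. The *Hoxd8* window held 1 CCAAT, in capitals, and none of the other 3, and the *Hoxa7* window held none of these letters.

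Between the genotypes, edgeR called 0 of the 19 members in each population, with 0.00666% of all genes tested called in TdT single positive cells and 0% in the other 3. An unadjusted p under 0.05 was reached by 3 members in TdT single positive cells (*Hoxb4*, *Hoxc10* and *Hoxc11*, each lower in the libraries labelled Cdh2-cKO) and by 1 in each other population. The smallest adjusted p was 0.239, for *Hoxb6* in double negative cells. voomWithQualityWeights and DESeq2 called 0 in each population, with 7 and 3 members at an unadjusted p under 0.05 in TdT single positive cells and at most 1 in each other population. Of all genes, voomWithQualityWeights called 0% in each population, and DESeq2 0.892% in TdT single positive, 3.56% in double negative, 0.00666% in double positive and 0.22% in CD45 single positive cells. *Hoxc11* had 9 and 78 counts in wild type and 0 and 2 in Cdh2-cKO TdT single positive libraries. *Hoxc10* in the same cells was at 14.8 and 32.6 RPKM in wild type and 6.03 and 7.81 in Cdh2-cKO libraries, which did not overlap (log2 difference -1.78 ± 0.75, edgeR adjusted p = 0.439). The fibroblast sum there was 32091 and 59707 normalized CPM in wild type and 13758 and 28532 in Cdh2-cKO libraries, and its part in the difference was not tested. The difference of the CD45 contrast between genotypes was called for 0 of 19 members (0% of all genes tested, 1 unadjusted p under 0.05), and that of the TdT contrast for 0 (0.00666%, with 0 unadjusted p under 0.05). With 2 or 3 libraries a group, these counts do not show that the genotypes were alike.

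The partners of Hox proteins were split. Of the 8 cofactors reported here, CD45- cells had more RNA of 4 and less of 2 (31.1% and 32.6% of all genes), and 2 were not called. *Meis1* was higher by 3.42 ± 0.31, *Meis2* by 5.35 ± 0.50 and *Pknox2* by 6.82 ± 0.61 on the log2 scale, whereas *Pbx2* and *Pknox1* were lower by 0.58 ± 0.11 and 0.52 ± 0.14 log2 units (edgeR adjusted p of at most 0.00373). *Meis2* and *Pknox2* averaged at most 0.429 normalized CPM in both CD45+ populations. A gene that passed the filter only through CD45- libraries had to differ, so the calls of these genes are no support in themselves. *Meis3* was the 1 cofactor called between the CD45- populations, at 6.65, 7.48, 7.85 and 14.3 normalized CPM in TdT single positive and between 1.21 and 4.21 in double negative libraries. These did not overlap (log2 difference 1.78 ± 0.35, edgeR adjusted p = 0.0224), but the call was lost on leaving out any of 5 libraries, with adjusted p up to 0.0883.

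Among 14 chromatin regulators of the clusters, 5 were higher in CD45- cells (*Kmt2a*, *Men1*, *Bmi1*, *Rnf2* and *Cbx2*), 5 lower (*Ezh2*, *Eed*, *Suz12*, *Rbbp5* and *Kdm6b*) and 4 not called. These shares were near those of all genes tested, of which 31.1% were higher and 32.6% lower. On the log2 scale, *Kmt2a* was higher by 0.83 ± 0.26 and *Men1* by 0.81 ± 0.15. Also higher were *Bmi1* by 0.75 ± 0.12, *Rnf2* by 0.84 ± 0.16 and *Cbx2* by 1.75 ± 0.34. *Eed* was lower by 1.08 ± 0.15, *Ezh2* by 0.43 ± 0.14 and *Suz12* by 0.485 ± 0.149. *Rbbp5* and *Kdm6b* were lower by 0.39 ± 0.13 and 0.845 ± 0.271. All these had an edgeR adjusted p of at most 0.0141. *Kmt2a* averaged 39.8 normalized CPM in TdT single positive, 56.1 in double negative, 22.05 in double positive and 36.3 (SD 41.7) in CD45 single positive libraries. None of the 14 was called between TdT single positive and double negative cells.

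Of 14 noncoding RNAs and neighbouring genes of the clusters, 12 were found and 4 were tested. *Hoxd3os1* was higher in CD45- cells by 6.75 ± 0.60 and *Hotairm1*, beside the anterior end of HOX-A, by 0.99 ± 0.32, while *Evx2*, beyond the posterior end of HOX-D, was lower by 0.70 ± 0.29 log2 units (edgeR adjusted p = 1.28e-07, 0.0115 and 0.0398). *Hoxd3os1* averaged 0.0185 normalized CPM in double positive and 0.0202 in CD45 single positive libraries. It passed the filter through CD45- libraries and so had to differ, which leaves its p-value no support in itself. *Hoxaas3*, the antisense RNA over *Hoxa7*, differed by 0.55 ± 0.28 (edgeR adjusted p = 0.0966), in contrast to the 3.94 of *Hoxa7* itself. *Hotair*, in HOX-C, averaged 0.0600 normalized CPM in TdT single positive libraries, below the filter. Of 22 patterning genes of mesenchyme, all homeobox or T-box genes but *Twist1* and *Twist2*, 14 were tested and 14 were higher in CD45- cells (31.1% of all genes). Of the 14, 12 averaged less than 1 normalized CPM in both CD45+ populations, and a gene that passed the filter only through CD45- libraries had to differ, so this count is no support. The limb mesenchyme genes *Prrx1*, *Shox2* and *Tbx15* were higher by 7.54 ± 0.36, 6.02 ± 0.46 and 6.62 ± 0.50 on the log2 scale. Between TdT single positive and double negative cells edgeR called 0 of the 14 (1.89% of all genes).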

How the data were processed

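RNA was sequenced from 22 libraries of sorted tumor stroma. Libraries were made with the SMARTer Ultra Low kit, without strand information or molecular identifiers, and read as single 50-base ends. The authors aligned the reads to GRCm38 (Ensembl release 76) with STAR (2.0.4b in the submitters' notes) and counted uniquely aligned, unambiguous reads per gene with featureCounts. The deposited count files hold raw whole numbers. The CPM values deposited by the authors are these counts scaled to library size, and the RPKM values deposited by the authors divide them by gene length. Both were only checked against the counts (relative deviation of at most 5.11e-14). All results come from the counts.

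Samples were grouped by their labels. In R 4.3.3, a gene was kept if it was no rRNA gene (355 were) and exceeded 1 CPM in 2 or more libraries, as in the study's methods, which left 15018 genes. edgeR 4.0.16 (TMM factors, quasi-likelihood test) fitted 1 mean per population and genotype over all 22 libraries, and a call needed p of at most 0.05 after Benjamini-Hochberg adjustment over all genes tested. The test was checked on simulated counts. SEs were derived from the quasi-likelihood F statistic. The alternatives were limma 3.58.1 (voomWithQualityWeights, the study's test), DESeq2 1.42.0, RLE factors, no filter, a log2 fold change of at least 2, each genotype alone, a replicate block, and leaving out libraries. Per-length levels divide normalized CPM by the deposited length. Marker sums use 7 leukocyte, 7 fibroblast and 7 epithelial genes.

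Values are given for the 8 members highest in CD45- cells, the 3 highest in CD45+ cells and any called within CD45- cells, within CD45+ cells or between genotypes (there were 0), with others named from their count. The members and lists were chosen with earlier results of these data known. The rule names 39 Hox genes, of which 38 are reported here. The labels call the replicates biological but do not say which mouse gave which library. Protein sequences were not used here. One cofactor of the list and one homeobox sequence are not reported here.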

Additional observations from a re-analysis of the deposited data

How the results depend on the processing

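Called counts of members kept to within 1.5 times of the value given under the alternatives tried, with 1 exception: between TdT single positive and double negative cells voomWithQualityWeights called 3 members where edgeR called 0. Between CD45- and CD45+ cells the count was 18 with voomWithQualityWeights (66.1% of all genes called), 19 with DESeq2 (64.3%) and with RLE factors (62.9%), 18 with a log2 fold change of at least 2 (24.7%), and between 15 and 19 on leaving out each library. It was lowest without wild type TdT single positive replicate 1 or double negative replicate 1, where 16 members passed the filter. Without a filter on low counts 24 members were higher and 1, *Hoxb1*, was lower (33.1% of all genes called in either direction).

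Whether same-numbered libraries share a mouse is not given in the labels, and correlations of deviations between different cells cannot settle it. Each same-numbered TdT single positive and double negative pair correlated over 0.1, but these pairs are not independent. Deviations of same-numbered libraries correlated between -0.296 and 0.593 in wild type and between -0.132 and 0.174 in Cdh2-cKO mice. With a replicate block 18 members were called between CD45- and CD45+ cells and 0 in the TdT contrast, the double positive contrast and both differences between genotypes. No paired analysis was possible because wild type and Cdh2-cKO libraries come from different mice, for the comparisons between genotypes.

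In the named genes, the sign changed for *Hoxd8* between TdT single positive and double negative cells in Cdh2-cKO libraries alone (-0.18) and for *Hoxb4* between double positive and CD45 single positive cells in wild type libraries alone (-0.41), where neither was called under any setting. The share of HOX-B in TdT single positive cells was 7.93% without division by gene length, against 10.2%. The depth limits what can be said of CD45+ cells, where 25 of 38 members had 3 counts or fewer in every library.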
